A study of Mus musculus with 10 samples.

Results

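Rbm3-only sites inside gene bodies are places where the RNA-binding protein Rbm3 was crosslinked to the RNA of 1 gene, away from both ends of that gene, and where no Cirbp site overlapped. They were chosen by 4 conditions: no shared nucleotide with a Cirbp site on the same strand, a place in the loci of exactly 1 gene, a marked nucleotide at least 2000 nt from the gene's 3' end, and at least 1000 nt from its 5' end. The ends were those of the gene's listed transcript with the highest mean FPKM (a level per kilobase of transcript that is also divided by library depth) over the 8 RNA-seq libraries. Of 2118 Rbm3 sites, 1752 shared no nucleotide with a Cirbp site, 1389 of these lay in 1 gene, and 777 sites in 569 genes met all conditions. The 2 proteins together had 4059 sites. The site calls of both PAR-CLIP libraries and the FPKM values therefore chose the members, and their distances from the gene ends and from Cirbp sites are given as descriptions without a test.

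Rbm3 and Cirbp are closely related cold-inducible RNA-binding proteins, each with an RNA recognition motif followed by a glycine-rich tail. Both are made in larger amounts when mammalian cells are cooled mildly, and both bind many messenger RNAs. In PAR-CLIP, cells take up a photoreactive uridine analogue, ultraviolet light links the protein to RNA at that base, and the protein is pulled down with its RNA, which is then sequenced. A site marks contact between protein and RNA and carries no information on what the contact does.

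The PAR-CLIP samples were 1 library of FLAG-tagged Rbm3 and 1 of FLAG-tagged Cirbp, each from a line of mouse embryonic fibroblasts (MEFs) that stably expressed the tagged protein at 37 °C and had 100 µM 4-thiouridine for 16 h. The labels do not say whether a line is 1 clone, nor how far the tagged protein exceeded the cell's own. RNA-seq covered polyadenylated RNA of MEFs in 4 groups of 2 libraries: mock-transfected cells at 32 °C, cells transfected with siRNA against Cirbp (siCirbp) at 37 °C, cells transfected with siRNA against Rbm3 (siRbm3) at 37 °C, and mock-transfected cells at 37 °C. How long cells were kept at 32 °C, whether the libraries of a group came from separate cultures, and whether the siRNA libraries numbered 1 and 2 used different siRNAs are not stated, so p-values reflect the spread of these libraries alone, which may be technical.

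The RNA-seq libraries held 24.8 to 27.8 M mapped fragments. Of 12 fibroblast markers, 10 reached a mean of 1 FPKM, while Lum and Thy1 did not. Of the markers of other cells, 2 of 6 for macrophage, 1 of 5 for epithelium, 2 of 6 for endothelium, 3 of 5 for muscle, 2 of 4 for fat and 2 of the 3 listed for neural cells reached a mean of 1 FPKM. Csf1r, Emr1, Lyz2 and Itgam (macrophage), Epcam, Cdh1, Krt8 and Krt18 (epithelium), Pecam1, Cdh5, Kdr and Tek (endothelium), Myod1 and Myog (muscle), Adipoq and Plin1 (fat) and Tubb3 (neural) did not. The targeted genes host no member. Cirbp stood at 34.5 and 37.2 FPKM at 32 °C, 10.8 and 6.07 FPKM in the siCirbp libraries, 13.8 and 23.8 FPKM in the siRbm3 libraries, and 15.9 and 17.1 FPKM in mock cells at 37 °C. Rbm3 stood at 3.64 and 3.20 FPKM at 32 °C, 5.54 and 7.55 FPKM in the siCirbp libraries, 3.05 and 1.16 FPKM in the siRbm3 libraries, and 1.85 and 2.21 FPKM in mock cells at 37 °C. By these sums over listed transcripts, the first library labelled siRbm3 had more Rbm3 RNA than either mock library at 37 °C, against its label, and the second had less. The Rbm3 levels are low and depend on the transcripts counted. With the highest transcript only, the Rbm3 log2 fold change at 32 °C turned from 0.55 to -0.67, and the sign in siRbm3 turned as well.

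The 10 highest-scoring sites lay in 9 genes, listed here with their positions on mm9 because they are the strongest members by the deposited score, which runs from 1 to 1000 in whole steps on a scale the sources used here do not give. Sites scoring 1000 lay in Gna13 (chr11:109257574-109257603, plus strand), which encodes a G protein alpha subunit, and in Ythdf2 (chr4:131760277-131760343, minus strand), which encodes a reader of N6-methyladenosine that promotes decay of its target RNAs. The other sites scoring 1000 lay in Fem1b (chr9:62643934-62643996, minus strand), which encodes a substrate receptor of a ubiquitin ligase, and in Nkrf (chrX:34430306-34430327, minus strand), which encodes a repressor of NF-kB targets. Tnrc6a, which encodes the Argonaute partner GW182 of microRNA silencing, held a site scoring 975 (chr7:130314689-130314757, plus strand). Sp3, which encodes an Sp-family transcription factor, held sites scoring 871 (chr2:72808584-72808611, minus strand) and 868 (chr2:72808471-72808521, minus strand). Cdc27, a core subunit of the anaphase-promoting complex, held a site scoring 843 (chr11:104366710-104366738, minus strand). Asb7, a SOCS-box substrate receptor, also held a site scoring 843 (chr7:73792683-73792712, minus strand), and 1810013L24Rik held one scoring 840 (chr16:8843218-8843249, plus strand).

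The distances of these top sites from the gene ends differed widely. The Cdc27, Nkrf and Asb7 sites lay 2876, 2774 and 3241 nt from the 3' end, close to the 2000-nt limit. The Sp3 sites lay 8749 and 8851 nt from the 5' end of a locus of 42849 nt, and the Tnrc6a site lay 24071 nt from the 3' end.

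Over all 777 sites the median score was 334 (interquartile range 201 to 441), 4 sites reached 1000, and 60 (7.72%) scored under 100. The 814 Cirbp-only sites inside gene bodies, which belong to the other protein's single library and were chosen by the same distances, had a median score of 301 (interquartile range 201 to 371) and a highest score of 938. Scores of different libraries may be scaled differently, so these values stand side by side without a test. Within the Rbm3 library, sites without Cirbp overlap had a median score of 318 near 3' ends (395 sites) and 260 near 5' ends (205 sites). Member sites were short, with a median width of 28 nt (range 17 to 93 nt). The 636 sites whose gene has a strand in the RefSeq table all lay on the strand of the gene. Whether a site falls in an exon or an intron was not determined, since exon positions on mm9 were not used here.

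Positions ran over the whole of the gene bodies. The median site lay 18474 nt from the 5' end and 8503 nt from the 3' end, at 60.9% of the locus counted from the 5' end. Rbm3-only sites were found in the first 10% of the locus in 50 cases (6.44%), against 15 Cirbp-only sites (1.84%), although the rule removed the first 1000 nt in both. In the 5'-most one of 3 equal parts of the locus lay 196 Rbm3-only sites (25.2%, 95% exact interval 22.2 to 28.4), against 137 Cirbp-only sites (16.8%, 14.3 to 19.6). With only the best-scoring site of each gene, the values were 135 of 569 Rbm3-only sites (23.7%, 20.3 to 27.4) and 104 of 586 Cirbp-only sites (17.7%, 14.7 to 21.1). Intervals cover counting error only, and each protein has 1 library.

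At the other end, 293 Rbm3-only sites (37.7%, 34.3 to 41.2) lay at least 2000 and under 5000 nt from the 3' end, against 247 Cirbp-only sites (30.3%, 27.2 to 33.6). The best-scoring sites gave 216 of 569 (38.0%) for Rbm3-only and 169 of 586 (28.8%) for Cirbp-only. At 20000 nt or more from the 3' end the shares were alike, with 240 Rbm3-only sites (30.9%, 27.7 to 34.3) and 256 Cirbp-only sites (31.4%, 28.3 to 34.8). Scores were slightly lower far from the 3' end. The median score was 360 for the 142 sites 2000 to 2999 nt from the 3' end and 318 for the 99 sites at 50000 nt or more. Across the 777 sites the Spearman correlation of score with distance to the 3' end was -0.12, a description of sites that share genes and 1 library.

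**Figure D1:**
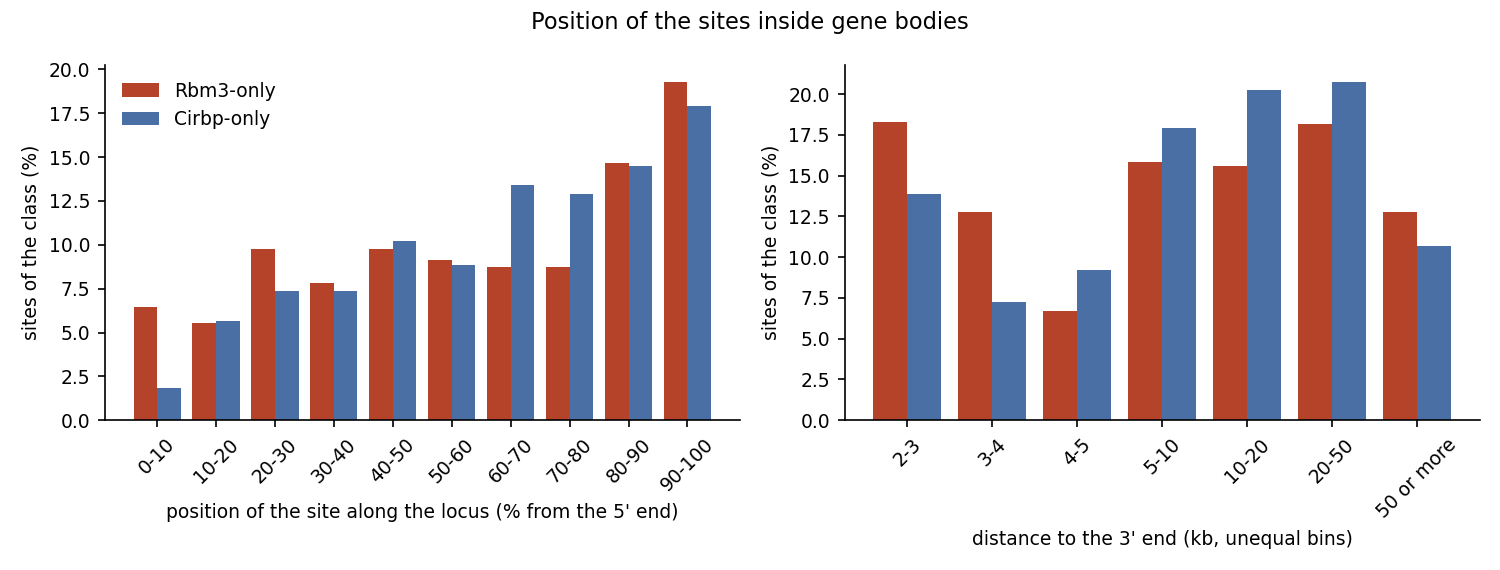
The left panel plots the percentage of sites (y axis) in each 10% step of the locus from the 5' to the 3' end (x axis) for Rbm3-only and Cirbp-only sites inside gene bodies. The right panel plots the percentage of sites by distance to the 3' end in kb, in bins of unequal width. Rbm3-only sites hold 6.44% in the first step against 1.84% of Cirbp-only sites, and both classes are highest in the last step, at 19.3% and 17.9%.

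Sites near the limits show how sharp the choice is. The members closest to the 3' limit were in Hnrpdl (2004 nt, score 419) and Rnd3 (2023 nt, score 101), and those closest to the 5' limit were in Zbtb10 (1005 nt, score 419) and 1810026J23Rik (1017 nt, score 360). Just outside were sites in Cpsf7 (1990 nt from the 3' end, score 426), Fam59a (1989 nt from the 3' end, score 201) and Arid1a (997 nt from the 5' end, score 419).

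Most host genes carried 1 site, and the rest often carried a tight group. Of 569 genes, 459 held 1 member site, 63 held 2 and 47 held 3 or more. The median score was 371 for sites in genes with 3 or more, 360 for sites in genes with 2 and 318 for sites in genes with 1. Within 200 nt of another member lay 143 sites (18.4%, 95% exact interval 15.7 to 21.3), against 65 of the Cirbp-only sites (7.99%, 6.22 to 10.1). Among genes with at least 2 sites, all sites fell within 500 nt in 42 of 110 Rbm3-only genes (38.2%, 29.1 to 47.9) and in 11 of 136 Cirbp-only genes (8.09%, 4.11 to 14.0). Within 2000 nt the counts were 68 of 110 (61.8%, 52.1 to 70.9) and 35 of 136 (25.7%, 18.6 to 33.9).

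The spacing did not rest on the gene with most sites. Without Son, 131 of 762 Rbm3-only sites (17.2%) and 63 of 809 Cirbp-only sites (7.79%) lay within 200 nt of another of their class. Rbm3-only sites near 3' ends had 73 of 395 (18.5%) within 200 nt of another and those near 5' ends 42 of 205 (20.5%), so close spacing was shared by all 3 Rbm3-only classes. Among all 1633 Rbm3 sites in 1 gene, overlapping ones included, the share was 22.7%. These spacing measures were chosen after the sites were seen. How the site caller split or joined neighbouring clusters in the 2 libraries is not stated and its part was not tested.

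**Figure D2:**
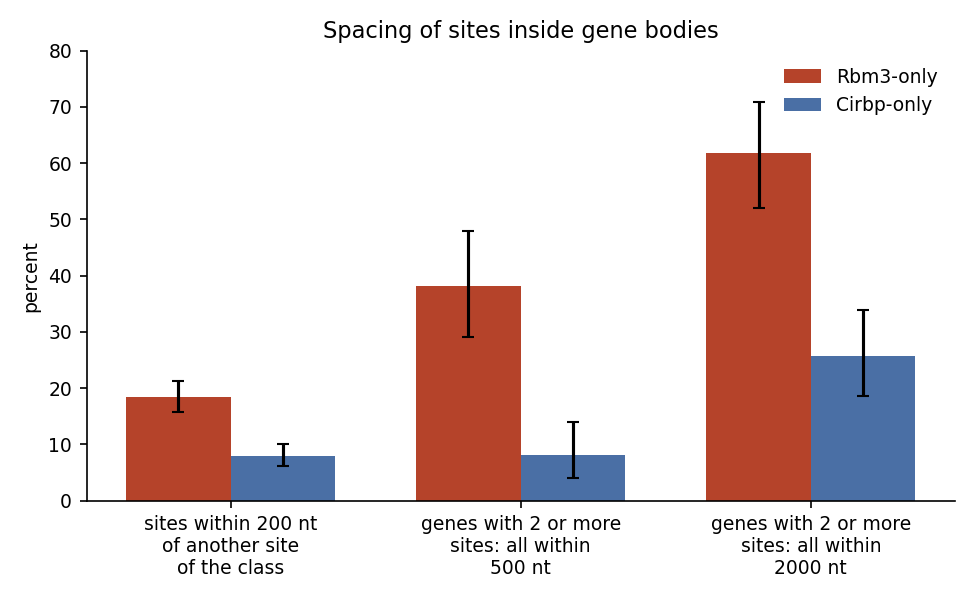
Bars give the percentage (y axis) of Rbm3-only and Cirbp-only sites inside gene bodies that lie within 200 nt of another site of their class, and of genes with 2 or more sites whose sites all lie within 500 or 2000 nt. Lines are 95% exact intervals, and the Rbm3-only bars stand at 18.4%, 38.2% and 61.8% against 7.99%, 8.09% and 25.7%.

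Genes with many sites show such groups. Only 7 genes held 6 or more, and 5 of them are described here, Son, Ythdf2 and Zbtb10 by number of sites, and Sp3 and Rbm15 ahead of Zfp238 and Bcl11a, which also held 6, by summed score. Son, which encodes a nuclear speckle protein needed for efficient splicing, held 15 members. Of these, 12 lay 7873 to 9838 nt from the 5' end and 3 lay 14694 to 14899 nt from it, with scores from 1 to 685. Ythdf2 held 7 members between 6802 and 8086 nt from the 5' end, with scores of 510, 441, 201, 1, 1000, 680 and 795 in that order. Zbtb10, which encodes a zinc finger protein with a BTB domain, held 7 members in 2 groups, 4 at 1005 to 1233 nt and 3 at 14000 to 14213 nt.

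Sp3 held 6 members, 5 of them at 8183 to 8885 nt and 1 at 32688 nt from the 5' end. Rbm15, which encodes an RNA-binding component of the N6-methyladenosine writer complex, held 6 members spread over 1124 to 2883 nt, with scores of 282 to 682. The best-scoring site was in the larger group for Sp3 (871), and in the smaller one for Son (685) and Zbtb10 (650).

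**Figure D3:**
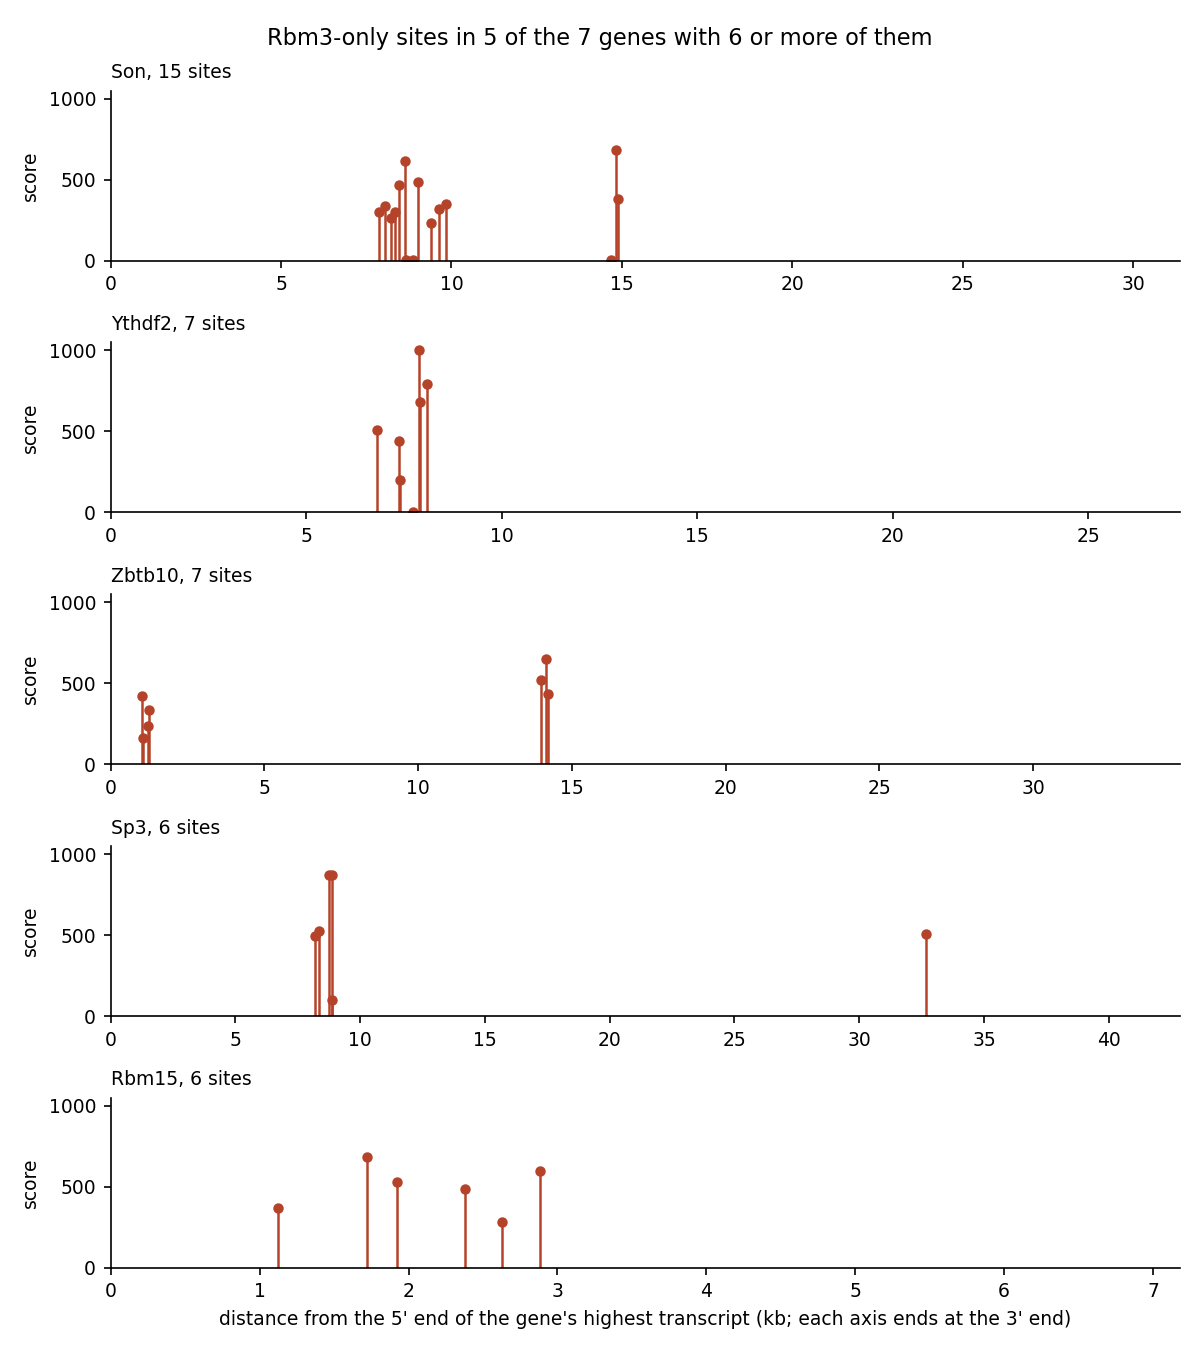
Each panel is 1 of 5 genes among the 7 with 6 or more members (Zfp238 and Bcl11a, with 6 each and lower summed scores, are not drawn), with the distance of each site from the 5' end in kb on the x axis and the deposited score on the y axis. The 12 upstream Son sites, the 7 Ythdf2 sites and 5 of the 6 Sp3 sites each lie within about 2 kb of each other or closer.

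A minority of members lay near a Cirbp site without overlapping it. Of the 777 members, 37 (4.76%) lay within 100 nt of a Cirbp site and 139 (17.9%, 15.3 to 20.8) within 1000 nt, and the median distance to the nearest Cirbp site on the same strand was 106644 nt. The closest were in Elavl2 (1 nt), Nufip2 (5 nt), Hnrnph1 (10 nt), Fem1b (12 nt) and Son (12 nt). The Fem1b site is the one scoring 1000, so its place among Rbm3-only sites rests on 12 nt. All 7 Ythdf2 members lay 38 to 400 nt from a Cirbp site, and all 15 Son members lay 12 to 669 nt from one. The Sp3 members lay 8220 to 32726 nt from one and the Zbtb10 members 16296 to 29513 nt.

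By gene, 385 of the 569 hosts (67.7%) had no Cirbp site of any kind and 184 (32.3%) had at least 1, which is 19.7% of the 936 genes with a Cirbp site. Genes with Cirbp-only body sites numbered 586, and 114 were shared, 20.04% of the Rbm3-only hosts and 19.5% of the Cirbp-only ones. A site bound by both proteins lay in 58 hosts, 10.2% of the hosts and 31.4% of the 185 genes with such a site.

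Few members could lie close to another listed 3' end of their gene. Of the 777 sites, 536 were in genes with 1 listed transcript, and 65 in genes with another listed 3' end. Only 8 sites in 6 genes lay less than 2000 nt upstream of another listed 3' end: 3 in Son (595, 666 and 800 nt), and 1 each in March5 (651 nt), Syncrip (682 nt), Rbmx (1251 nt), Wdr33 (1734 nt) and Nap1l1 (1795 nt). Downstream of another listed 3' end lay 11 sites, and the March5 site is counted in both sets.

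In Rbmx, which encodes hnRNP G, the transcripts with the upstream end held 21.6% and 18.4% of the gene's FPKM at 32 °C, 53.3% and 51.2% in the siCirbp libraries, 51.7% and 44.6% in the siRbm3 libraries, and 30.5% and 34.6% in mock cells at 37 °C. The siCirbp and siRbm3 libraries were all above the mock libraries at 37 °C, and the 32 °C libraries below them. The transcript tested for that end gave a limma p of 0.0419 for siCirbp against mock 37 °C, and 0.417 after Benjamini-Hochberg adjustment over 2936 transcripts. In Son, the upstream end held 26.7% and 23.9% at 32 °C, 17.9% and 20.6% in the siCirbp libraries, 23.2% and 26.3% in the siRbm3 libraries, and 25.2% and 28.3% in mock cells at 37 °C. No tested transcript of these genes passed the adjusted threshold of 0.05 in limma in any of the 4 comparisons.

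The host genes were long and moderately expressed. The length of the main transcript had a median of 4430 nt over the 505 hosts with a mean of at least 1 FPKM, against 2766 nt over all 10901 genes of that level. Locus spans had medians of 36501 nt and 20940 nt. The distance rule itself removes loci shorter than 3000 nt, so these lengths follow in part from the choice. The median level was 17.4 FPKM over these 505 hosts and 13.4 FPKM over the 10901 genes. Of the 505, 19 (3.76%) reached 100 FPKM, against 4.95% of the 10901 genes. The number of sites per gene had a Spearman correlation of 0.10 with FPKM and 0.20 with transcript length over the 569 hosts, and site scores had one of 0.04 with host FPKM.

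A minority of sites lay in genes hardly seen in the RNA-seq. In 64 host genes with 73 sites the mean was under 1 FPKM, and 11 of these genes with 18 sites were listed at 0 in all 8 libraries. Bcl11a, a zinc finger transcription factor gene of blood and nerve cells, held 6 sites with scores up to 606 and was listed at 0. Zfp711 held 3 sites with scores up to 588 and was also listed at 0. Sites in these 64 genes had a median score of 260, and 24.7% scored under 100, against 334 and 5.97% for the 704 sites in hosts of at least 1 FPKM. The labels do not say whether the tagged lines and the RNA-seq cells came from 1 MEF line.

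Gene lists show which kinds of genes carried members. Of 59 listed splicing factors and hnRNPs, 16 were hosts (27.1%), against 4.63% of all genes of at least 1 FPKM, and 17 held Cirbp-only body sites. The 58 of them that reached 1 FPKM had a median of 45.6 FPKM, against 13.4 FPKM for all genes of that level. Lists and all genes were not matched for level or length. The highest scores there were 685 in Son, 572 in Rbm25 and 460 in Srsf10. Of 38 chromatin and transcription regulators, 10 were hosts and 13 held Cirbp-only body sites, led by the histone methyltransferase gene Mll1 (615), Setd5 (600) and the chromatin remodeller gene Chd8 (392). Of 38 translation and ribosome genes, 7 were hosts, led by Ncl (548), Eif3c (318) and Eif4g2 (260), and 6 held Cirbp-only body sites.

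Other lists held 0 to 3 hosts. The 49 actin and adhesion genes had 3 (6.12%), Flna (282), Mprip (233) and Actb (159). The 61 collagen and matrix genes had 1 (1.64%), Vcan (233), and the 27 genes of pre-mRNA 3' end processing had 1 (3.7%), Wdr33 (301). The 21 endoplasmic reticulum genes had 1 (4.76%), Hspa5 (101), and the 17 long noncoding RNAs had none. Cirbp-only body sites lay in 6 of the actin, 5 of the 3' end processing and 4 of the endoplasmic reticulum genes. None lay in the collagen and matrix genes or the long noncoding RNAs. The share over all genes of at least 1 FPKM was 4.63%, as given above, while the list shares also count listed genes below 1 FPKM. Of 366 listed genes named Zfp with a number, a list chosen after the hosts were seen, 21 were hosts (5.74%), among them Zfp238 with 6 sites and Zfp281 with 4. Of these Zfp genes, 275 reached 1 FPKM, and 18 of those were hosts.

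At 32 °C many host genes had less RNA than at 37 °C. Of the 505 hosts with at least 1 FPKM, 148 fell (29.3%) and 22 rose (4.36%), where 19.8% of all 10901 genes fell and 13% rose. In both directions together, 170 hosts (33.7%) were called against 32.8% of all genes. The median log2 fold change, on the log2(FPKM + 1) scale, was -0.30 for the hosts and -0.02 for all genes. At least 2-fold changes were called for 43 lower hosts (8.51%) and 4 higher hosts (0.792%), against 7.46% and 2.94% of all genes. Lower RNA of a gene may come from fewer cells of a type or from less RNA per cell, which cannot be told apart in bulk samples. Calls are limma's, with Benjamini-Hochberg adjustment over all 10901 genes.

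The 6 hosts that fell most include cell-cycle genes. Aurkb, the mitotic kinase Aurora B, had 1.79 and 1.89 FPKM at 32 °C, against 13.9 and 14.2 FPKM in mock cells at 37 °C (log2 fold change -2.41, SE 0.13, limma adjusted p = 0.000992). Foxm1, a transcription factor of mitotic genes, had 3.28 and 3.65 FPKM at 32 °C, against 14.1 and 14.4 FPKM at 37 °C (log2 fold change -1.77). Alkbh5, an RNA demethylase of N6-methyladenosine, had 17.5 and 17.7 FPKM at 32 °C, against 62.9 and 60.6 FPKM at 37 °C (log2 fold change -1.75). The groups did not overlap in any of these, which the rule for naming called genes required. Dag1 (dystroglycan, -1.67), Nfix (a nuclear factor I gene, -1.63) and Prrc2a (5 sites, -1.50) followed.

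Fewer hosts rose. Psmc4, an ATPase of the proteasome's regulatory particle, had 77.8 and 92.7 FPKM at 32 °C, against 35.4 and 41.4 FPKM at 37 °C (log2 fold change 1.13, SE 0.17, limma adjusted p = 0.00521). Hspa5, the endoplasmic reticulum chaperone BiP, had 603.6 and 649.4 FPKM at 32 °C, against 303.7 and 305.2 FPKM at 37 °C (log2 fold change 1.04). The death receptor gene Fas (1.11), Dnajc8 (1.04), the nuclear receptor gene Nr1d2 (0.91) and the calcium-binding protein gene Calu (0.91) also rose. These 12 genes hold 1 site each except Alkbh5 with 2 and Prrc2a with 5.

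Among the lists, chromatin and transcription regulators fell together, and so did many genes of other lists. Of 50 tested collagen and matrix genes, 28 fell and 3 rose (median log2 fold change -0.81). Of 46 tested actin and adhesion genes, 24 fell and 2 rose (median -0.71). Of 10 chromatin hosts, 9 fell and none rose (median log2 fold change -0.87), and of the whole list of 38 genes 27 fell and none rose (median -0.84). Arid1a, a subunit of a chromatin remodelling complex, had 6.08 and 5.28 FPKM at 32 °C, against 15.7 and 16.9 FPKM at 37 °C (log2 fold change -1.37, adjusted p = 0.00462). Polr2a, the largest subunit of RNA polymerase II, had 17.4 and 17.4 FPKM at 32 °C, against 42.1 and 45.1 FPKM at 37 °C (log2 fold change -1.28). Without 1 of the 4 mock libraries, 2 to 5 of the 10 were called, and all 10 values stayed below 0. Nfib, the host not called, had 22.8 and 20.1 FPKM at 32 °C, against 33.9 and 32.6 FPKM at 37 °C.

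Fewer splicing factors were called. Of 16 hosts, Prpf8 (-1.46), Srrm2 (-1.10) and Sf1 (-0.72) fell and none rose, with a median of 0.08, and Son had 55.3 and 52.5 FPKM at 32 °C, against 50.5 and 49.1 FPKM at 37 °C. In the whole list of 58 tested genes, 14 fell and 2 rose. Among translation genes Eif3c rose (0.85) and Eef2 fell (-0.78), and among actin genes Mprip (-0.92) and Flna (-0.88) fell. The endoplasmic reticulum host Hspa5 rose, as given above, where 5 of 21 genes of its list rose and 3 fell. Wdr33 and Vcan were not called.

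Among the genes with the most or highest-scoring sites, Gna13 had 23.3 and 22.4 FPKM at 32 °C, against 39.1 and 37.5 FPKM at 37 °C, and fell (log2 fold change -0.72, limma adjusted p = 0.00793). Asb7 fell as well, with 4.92 and 5.07 FPKM at 32 °C, against 8.38 and 7.87 FPKM at 37 °C (-0.61). Rbm15 had 4.94 and 4.56 FPKM at 32 °C, against 8.46 and 9.18 FPKM at 37 °C, and missed the threshold (-0.77, adjusted p = 0.0638). Ythdf2, Fem1b, Nkrf, Tnrc6a, Sp3, Cdc27, Zbtb10 and 1810013L24Rik were not called. Of the 44 tested hosts with 3 or more sites, 15 fell (34.1%) and none rose, where 19.8% of all genes fell and 13.0% rose.

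Genes with longer transcripts were called lower at 32 °C more often, and hosts are long. Over all genes the log2 fold change had a Spearman correlation of -0.34 with transcript length. Among genes under 2500 nt, 14.9% of 47 hosts and 10.2% of 4734 other genes fell. From 2500 to 3999 nt the shares were 28.0% of 143 hosts and 22.1% of others, from 4000 to 5999 nt 28.8% of 156 hosts and 30.0% of others, and at 6000 nt or more 35.2% of 159 hosts and 36.02% of others. With the length trend removed, 87 hosts fell (17.2%) and 45 rose (8.91%), where 17.1% of all genes fell and 13.6% rose. In that fit 5 of the 10 chromatin hosts fell. Of the 44 hosts with 3 or more sites, 9 fell (20.5%) and 4 rose (9.09%) there. With each library centred on its median, which moved the median of all genes to 0.11, 111 hosts fell (22.0%) and 31 rose (6.14%), against 15.8% and 19.4% of all genes.

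Of the 544 tested hosts of Cirbp-only body sites, 89 fell at 32 °C (16.4%) and 64 rose (11.8%), with a median log2 fold change of 0.03. With the length trend removed, 55 of them fell (10.1%) and 99 rose (18.2%), with a median of 0.26, where the Rbm3-only hosts had a median of -0.05 and all genes one of 0.01. Which of the 2 host sets stood closer to all genes thus changed with the length trend. Before that removal, Rbm3-only hosts without any Cirbp site fell in 110 of 328 cases (33.5%) and those with one in 38 of 177 (21.5%). With the length trend removed, 67 (20.4%) and 20 (11.3%) of them fell, against 17.1% of all genes. Without the removal, genes with Rbm3-only sites near 3' ends fell in 69 of 273 cases (25.3%), and genes with such sites near 5' ends in 45 of 147 (30.6%). The difference between these sets was not tested, and some genes are in several of them. Marker lists differed as well. The 6 macrophage markers summed to 30.5 to 35.96 FPKM at 32 °C, against 17.6 to 20.6 FPKM in mock cells at 37 °C, and the 3 listed neural markers to 17.2 to 18.2 FPKM, against 50.1 to 53.3 FPKM. Fibroblast markers summed to 11165 to 13924 FPKM at 32 °C and 6082 to 6971 FPKM in the siCirbp libraries, against 9640 to 9690 FPKM in mock cells at 37 °C. Their part in the results was not tested. Leaving out 1 of the 4 mock libraries left 19 to 35 hosts called, where 7.58% and 3.62% of all genes were called without the first or second 32 °C library and 6.01% and 3.65% without the first or second 37 °C library. The 6 named falls stayed called in each of these, with a highest adjusted p of 0.0410, while Psmc4, Dnajc8 and Hspa5 lost the call in 2 of the 4 fits and Fas, Nr1d2 and Calu in 4.

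**Figure D4:**
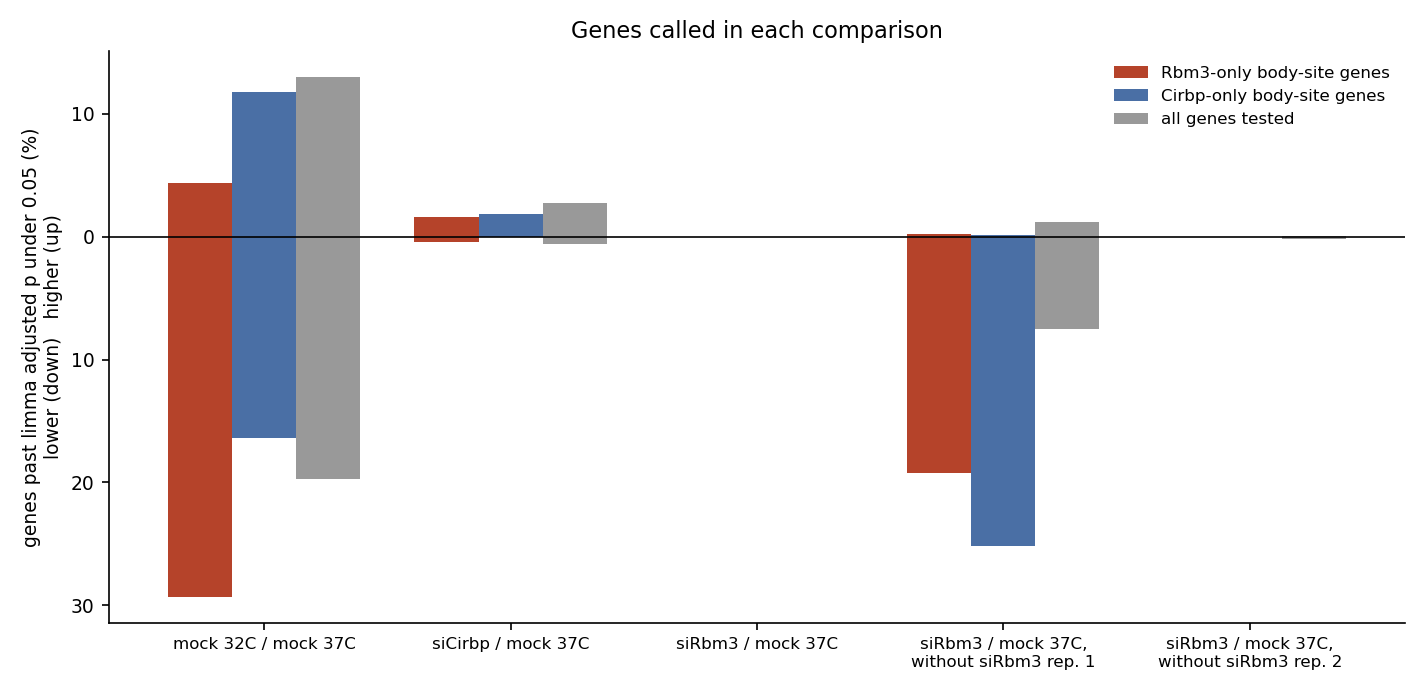
Bars give the percentage of genes called higher (up) and lower (down) by limma at an adjusted p under 0.05 for hosts of Rbm3-only body sites, hosts of Cirbp-only body sites and all genes tested, in 32 °C, siCirbp and siRbm3 each against mock 37 °C and in siRbm3 without its first or its second library. Hosts of Rbm3-only sites are at 29.3% lower at 32 °C against 19.8% of all genes. The siRbm3 bars without a library use the spread of the other groups, which was narrower than that between the siRbm3 libraries.

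After Cirbp siRNA few hosts changed. Of 505, 8 rose and 2 fell (1.98%), against 3.39% of all genes (2.77% higher and 0.624% lower). Aurkb had 32.2 and 32.6 FPKM in the siCirbp libraries, against 13.9 and 14.2 FPKM in mock cells (log2 fold change 1.15, SE 0.13, limma adjusted p = 0.0211). Mybl2, a transcription factor of cell-cycle genes, had 4.07 and 8.47 FPKM in the siCirbp libraries, against 1.61 and 1.58 FPKM in mock cells (1.42). Lmnb2 (lamin B2) had 9.24 and 13.2 FPKM, against 4.04 and 4.51 FPKM in mock cells (1.19). The libraries of the 2 groups did not overlap in any of these genes, as the naming rule required.

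Among RNA-binding proteins, Hnrnpab had 173.6 and 204.3 FPKM in the siCirbp libraries, against 95.6 and 102.8 FPKM in mock cells (log2 fold change 0.92). Ilf2 (0.91) and the RNA helicase gene Ddx39b (0.81) rose as well. Pkd1 (polycystin-1) fell, with 14.2 and 15.7 FPKM in the siCirbp libraries, against 23.5 and 24.6 FPKM in mock cells (-0.65), and so did E130308A19Rik (-0.74). Med13l, of the Mediator kinase module, had 22.4 and 20.5 FPKM, against 38.2 and 36.03 FPKM in mock cells, and missed the threshold (-0.76, limma adjusted p = 0.0571).

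These calls were sensitive to single libraries. Without any one of the 4 mock libraries, or without the second siCirbp library, no host passed in limma. The unadjusted p was under 0.05 for 29 to 87 hosts in these 5 fits (5.74% to 17.2%), against 1160 to 2569 of all genes (10.6% to 23.6%). In the fit of all libraries it was so for 97 hosts (19.2%), against 2642 of all genes (24.2%). All genes passed in 0.0367% without either 32 °C library, in 0.119% and 0.138% without the first or second mock library at 37 °C, and in 0.0734% without the second siCirbp library. The first siRbm3 library enters only the shared estimate of spread here. Without it, the median log2 fold change stayed at 0.03 for hosts and 0.08 for all genes. More genes passed then, with a smaller share among hosts than among all genes. Of the targeted gene itself, Cirbp, the log2 fold change was -0.94 (limma adjusted p = 0.116), and of Rbm3 it was 1.31 (0.0588).

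In the libraries labelled siRbm3, no host passed against mock 37 °C in limma, nor did any of the 10901 genes (0%). Unadjusted p under 0.05 was reached by 73 hosts (14.5%) and by 1451 genes in all (13.3%). The smallest p among lower hosts belonged to Trps1, a repressor with a GATA-type zinc finger, with 14.2 and 9.42 FPKM in the siRbm3 libraries, against 24.2 and 23.2 FPKM in mock cells (log2 fold change -0.97, limma adjusted p = 0.350). Zfp281, a zinc finger transcription factor, had 15.5 and 8.73 FPKM in the siRbm3 libraries, against 27.9 and 27.8 FPKM in mock cells (-1.19). Arhgap5, a GTPase-activating protein, had 12.7 and 7.02 FPKM, against 22.4 and 22.9 FPKM in mock cells (-1.17). In all 3 genes the second siRbm3 library was the lowest. Among higher hosts the smallest p belonged to Aurkb (20.9 and 22.1 FPKM in the siRbm3 libraries, against 13.9 and 14.2 FPKM in mock cells), Csnk2b (0.50), the beta subunit of casein kinase 2, and Kctd1 (0.61).

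The 2 libraries labelled siRbm3 differed from each other in the host genes. In the second library, 65 of 505 hosts were at least 2-fold lower than in the first and none at least 2-fold higher (12.9% lower, against 5.17% of all genes lower and 2.00% higher). In both mock groups no host differed by 2-fold between the libraries, and in the siCirbp group 1 was lower (0.198%) and 5 higher (0.990%) in the second, against 2.53% and 1.61% of all genes. The second siRbm3 library is also the one with less Rbm3 RNA by the summed FPKM. Since labels do not say how the 2 differ, the siRNA, the culture and the library cannot be told apart.

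Without the first siRbm3 library, the remaining one was set against mock 37 °C under the assumption that it varies like the other groups. The values go against this assumption, most clearly for the mock groups. Ignoring sign, the siRbm3 values of a gene lay a median of 0.31 log2 units apart over all genes. The medians were 0.26 in siCirbp, 0.11 in mock 32 °C and 0.09 in mock 37 °C. P-values of this fit, here and below, use the spread of those other groups and may be too small. In that fit 97 hosts fell (19.2%) and 1 rose, where 7.5% of all genes fell and 1.22% rose. With the length trend removed as well, 96 fell (19.01%) and 11 rose, against 9.32% and 1.35% of all genes. Without the second library instead, no host passed in limma and 22 genes in all did (0.202%), with an unadjusted p under 0.05 for 52 hosts (10.3%), against 1460 of all genes (13.4%). Both fits were read with the Rbm3 levels known.

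Lower calls were also frequent among hosts of Cirbp-only sites. Without the first siRbm3 library, hosts of Cirbp-only body sites fell in 137 of 544 cases (25.2%), and Rbm3-only hosts that also had a Cirbp site in 57 of 177 (32.2%). Rbm3-only hosts without a Cirbp site fell in 40 of 328 cases (12.2%), and genes with Rbm3-only sites near 3' ends in 26 of 273 (9.52%). By best score, 28 of 93 hosts with a score of at least 500 fell (30.1%) and 12 of 82 with a score under 200 (14.6%). These subsets were chosen after the values were seen, and the differences between them were not tested. The calls rest on the second siRbm3 library alone and on the spread of the other groups.

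Among the genes with the most or the highest-scoring sites, 3 fell in that fit. Sp3 had 39.3 and 15.1 FPKM in the siRbm3 libraries, against 42.2 and 42.3 FPKM in mock cells (log2 fold change -1.42 without the first library). Cdc27 had 24.6 and 8.97 FPKM in the siRbm3 libraries, against 26.7 and 27.0 FPKM in mock cells (-1.48). Tnrc6a had 26.4 and 15.03 FPKM, against 24.7 and 23.8 FPKM in mock cells (-0.66, and 0.12 without the second library instead). In each the first siRbm3 library was close to the mock libraries and the second below them. Son, Ythdf2, Rbm15, Zbtb10, Gna13, Fem1b, Nkrf and Asb7 were not called. Son had -0.35 without the first library and 0.17 without the second, and Rbm15 had -0.48 and 0.38. The smallest p belonged to Prpf39, a U1 snRNP-associated splicing factor, with 10.7 and 2.84 FPKM in the siRbm3 libraries, against 13.8 and 12.5 FPKM in mock cells (-1.88).

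**Figure D5:**
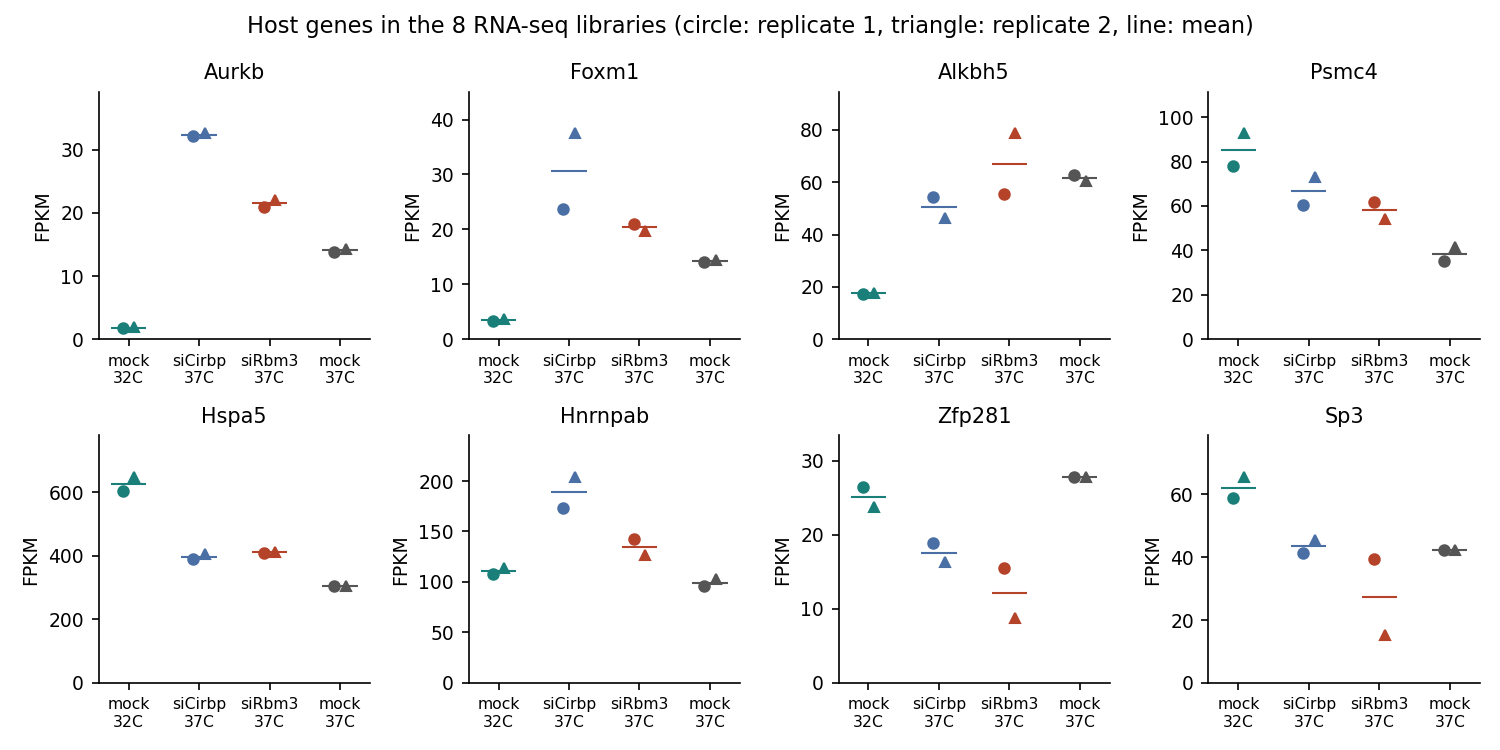
FPKM (y axis) of 8 host genes in every RNA-seq library, by group (x axis: mock 32 °C, siCirbp, siRbm3, mock 37 °C), with a circle for the first and a triangle for the second library. Aurkb, Foxm1 and Alkbh5 are lowest at 32 °C, Psmc4 and Hspa5 are highest there, and in the siRbm3 group the second library of Sp3 and Zfp281 lies below the first.

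Set against siCirbp directly, the siRbm3 libraries had no called host, where 4 of all genes were called by limma (0.0367%, with 0.0183% higher and 0.0183% lower). Unadjusted p under 0.05 was reached by 85 hosts (16.8%) and 1654 genes in all (15.2%). Pkd1 had 25.9 and 28.6 FPKM in the siRbm3 libraries, against 14.2 and 15.7 FPKM in the siCirbp libraries (log2 fold change 0.83, limma adjusted p = 0.221), and E130308A19Rik (0.68) and Chpf2 (0.55), of chondroitin synthesis, came next. On the lower side, Smc4, a condensin subunit, had 44.2 and 22.7 FPKM in the siRbm3 libraries, against 98.9 and 93.6 FPKM in the siCirbp libraries (-1.57). Galnt7, of O-glycan synthesis, had 7.69 and 10.5 FPKM, against 15.5 and 20.4 FPKM in the siCirbp libraries (-0.91), and 2410042D21Rik followed (-0.73). The libraries of the 2 groups did not overlap for Pkd1, Smc4 and Galnt7. Without the first siRbm3 library 126 hosts were lower and 25 higher, where 12.3% of all genes were lower and 7.24% higher.

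Shares of transcripts within a gene were tested because a site inside a gene body can lie beside alternative exons or ends. For 231 transcripts of 108 host genes, limma called none in any of the 4 comparisons, where 0.238% of 2936 transcripts were called at 32 °C and 0% in the other 3. Unadjusted limma p under 0.05 was reached by 24 host transcripts at 32 °C (10.4%), against 420 of all transcripts (14.3%). In siCirbp it was reached by 29 (12.6%) against 334 (11.4%), and in siRbm3 by 12 (5.19%) against 134 (4.56%). In siRbm3 against siCirbp it was reached by 17 (7.36%) against 294 (10.0%).

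The smallest p belonged to Kif21a, a kinesin gene. Its transcript NM_001109042 held 34.9% and 25.6% of the gene in the siCirbp libraries and 70.2% and 47.0% in the siRbm3 libraries, against 0.513% and 0.0243% in mock cells at 37 °C (siRbm3 limma adjusted p = 0.114). At 32 °C it held 0.601% and 0.605%. The siRNA libraries were all far above the mock libraries. Transcript NM_018764 of the protocadherin gene Pcdh7 held 73.8% and 76.5% at 32 °C, 73.7% and 79.1% in the siCirbp libraries and 74.7% and 66.7% in the siRbm3 libraries, against 44.7% and 49.7% in mock cells at 37 °C, the group that all 3 comparisons share.

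Further transcripts differed between single groups without passing the adjusted threshold. Tlk2, a kinase of chromatin assembly, had 95.5% and 92.6% for NM_001112705 in the siRbm3 libraries, against 56.4% and 58.1% in the siCirbp libraries (limma adjusted p = 0.313). Agap1 had 54.2% and 22.8% for NM_178119 at 32 °C, against 93.5% and 89.4% in mock cells at 37 °C. Abl2, a tyrosine kinase gene, had 26.7% and 31.2% for NM_001136104 at 32 °C, against 48.9% and 55.1% at 37 °C. Ythdf3, a relative of Ythdf2, had 91.1% and 87.8% for NM_001145919 in the siCirbp libraries and 82.2% and 76.2% in the siRbm3 libraries, against 45.6% and 33.1% in mock cells at 37 °C. B230120H23Rik, Mta3, Nhsl1 and Cnot6l had adjusted p of 0.115, 0.714, 0.416 and 0.453 in limma in the comparisons that named them.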

How the data were processed

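PAR-CLIP sites of FLAG-tagged Rbm3 and Cirbp and RNA-seq of polyadenylated RNA from MEFs were used. The authors deposited a score per site in whole steps of unknown scale. Sites refer to mm9 and carry a filter name without further meaning, per the file headers, and the site caller is not given in the sources used here. The authors deposited FPKM per RefSeq transcript in Cufflinks-type tables, whose version and annotation release are not given in the sources used here. TopHat 1.1.2 was the aligner, to mm9, per the submitters' processing notes. The coverage column, a signal deposited per transcript, gave the depth through its constant ratio to FPKM.

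FPKM were summed per gene. Genes with a mean of at least 1 FPKM (10901) were tested with limma 3.58.1 in R 4.3.3 on log2(FPKM + 1), with 4 group means, trend and robust moderation, two-sided tests, Benjamini-Hochberg adjustment and a threshold of 0.05. Low genes have understated fold changes on this scale. Transcript shares were tested likewise where a gene reached 5 FPKM and 2 or more of its transcripts held 10%. Intervals for shares are exact (Clopper-Pearson) and cover counting error only. In simulated data each gene had 1 spread, averaged over the groups, and few genes were changed. There the fit recovered 36% to 50% of log2 changes of 1 in the 4 comparisons. It recovered 2% to 4% of log2 changes of 0.5. Distances use 1-based mm9 positions, with the strand of the site taken as that of the gene. The host transcript of 766 of 777 sites matched the RefSeq tables by accession, and 636 of these had a gene strand there. How reads of paralogs were shared, and whether counting used strand, is not given in the sources used here, so overlapping and antisense genes cannot be told apart. 

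Members and gene lists were chosen with earlier results of these data known. Named are the 10 sites of highest score, the 5 genes with most sites (ties by summed score), the 5 sites nearest to Cirbp sites and the sites at the limits, of which 1 is not reported here. Per comparison the 6 largest rises and falls among called hosts of at least 5 FPKM with no overlap of libraries are named. With fewer than 3 called, the 3 smallest p in that direction are named. Up to 4 transcripts per comparison, up to 3 hosts per list, and Cirbp and Rbm3 are named as well. Other genes were chosen after their values were seen, namely those hosts of top sites, the 3' end examples, the low genes, Arid1a, Polr2a, Nfib, Prpf8, Srrm2, Sf1, Eef2 and Prpf39.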

Additional observations from a re-analysis of the deposited data

How the results depend on the processing

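Moving the limits changed the sites as built in. The median position was 69.8% of the locus with a limit of 1000 nt from the 3' end, 46.9% with 5000 nt (484 sites) and 66.9% with 2000 nt from the 5' end. With scores at or above the median of all Rbm3 sites, 426 sites were left, with a median score of 426 and a median distance to Cirbp sites of 32862 nt. At 32 °C, a fit of only the groups compared called 7557 genes and 368 hosts, and leaving out 1 library gave 395 to 5071 genes and 19 to 256 hosts. For siCirbp, all genes (370) and hosts (10) became 57 and 1 without a filter on low values, 217 and 4 with the highest transcript only, 92 and 1 with the length trend removed, and 13 and 0 with only the groups compared. Leaving out 1 library gave 4 to 1612 genes, 0 to 57 hosts and 0 to 2 host transcripts. With all libraries, 0 of 2936 transcripts were called for siCirbp. The number called among all transcripts with 1 library left out is not given here. Whether host transcripts exceeded that background can therefore not be judged. For siRbm3, 2 genes (1 of them a host) were called with the highest transcript only, 1 gene with the length trend removed, 5 with only the groups compared, and 0 to 951 genes and 0 to 98 hosts when 1 library was left out. For siRbm3 against siCirbp, 7 genes were called without a filter, 7 with only the groups compared, and 4 to 2132 genes and 0 to 151 hosts when 1 library was left out. With the length trend removed and the first siRbm3 library left out, an alternative chosen after seeing the data, hosts called were 50 (9.90%) for siCirbp, 107 (21.2%) for siRbm3 and 178 (35.2%) for siRbm3 against siCirbp, against 11.6%, 10.7% and 23.7% of all genes. The causes were not tested.

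Among the genes named for their change in a comparison, the direction turned in that comparison for Cirbp and Rbm3 and for no other in the alternative settings listed here. Of 29 hosts named for their sites or change, 7 had opposite signs in siRbm3 without its first and without its second library: Tnrc6a, Son, Rbm15, Hnrnph1, Hnrpdl, Asb7 and E130308A19Rik. Hnrnph1 had -1.25 and 0.58. Rbm3 at 32 °C was -0.67 with the highest transcript only. Cirbp in siRbm3 was -0.093 with the length trend removed and ran from -0.24 to 0.50 when 1 library was left out. Rbm3 in siRbm3 was 0.11 with the highest transcript only, 0.026 with quantile normalization, and ran from -0.48 to 0.42 when 1 library was left out. Of the other fold changes of named genes under alternatives, 551 kept direction and side of the threshold, 112 lost the call and 22 gained it.

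A replicate block by library number gave 3183 genes and 157 hosts at 32 °C, 3 genes and 0 hosts for siCirbp, and 0 hosts for siRbm3. Correlations of same-numbered libraries ran from -0.153 to 0.0914, so the numbers were not taken as pairs. In fits of 2 groups, chosen after seeing the data, crossed numbers called 7086 genes at 32 °C, 13 for siCirbp, 116 for siRbm3 and 4 for siRbm3 against siCirbp, against 7856, 173, 4 and 7 with the same numbers paired. With 2 libraries a group, small changes and many 2-fold changes may not have been detectable. With 1 PAR-CLIP library a protein, differences between sites could not be tested.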
